A study of Mus musculus with 15 samples.

Results

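Stabilins and other scavenger receptors of the mouse liver are described here through 10 genes, Stab1, Stab2, Scara5, Scarb1, Scarb2, Msr1, Marco, Colec12, Mrc1 and Cd163, which were found by their symbols in the deposited expression table, whose 19464 entries carry 19348 different gene IDs. Each symbol matched 1 entry. The question put to them was whether the loss of Stab1, the gene of the scavenger receptor Clever-1 (stabilin-1), came with a change in any of the other 9. RNA had been sequenced from whole liver in 15 libraries. At 2 weeks of age there were 4 libraries from Stab1-/- mice, which carry the deletion in all cells, and 4 from wildtype mice. At the embryonic stage E17.5, late in gestation, there were 3 Stab1-/- and 4 wildtype libraries. The labels give the mixed background C57BL/6N;129SvJ for both genotypes, no treatment, and replicate numbers without saying what the numbers stand for. The labels do not state that each library came from a separate animal, so p-values measure the spread between these libraries. In units of 1000 reads, from 9659 to 10964 per library had been counted on genes.

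Scavenger receptors are surface proteins that bind modified lipoproteins, polyanions, glycoproteins, cell debris or microbes and carry them into endosomes. In the liver this clearance is the work of sinusoidal endothelial cells, which line the sinusoids without a continuous barrier, and of Kupffer cells, the resident macrophages. The stabilins are large endocytic receptors of sinusoidal endothelium, and the paper also describes Clever-1 on monocytes and some macrophages. Msr1, Marco, Colec12 and Scara5 belong to class A, and Scarb1 and Scarb2 to the CD36-like class B. Cd163 (receptor for the haemoglobin-haptoglobin complex) marks macrophages, and Mrc1 (mannose receptor) macrophages and sinusoidal endothelium. All values come from whole tissue, in which fewer cells of a type and less RNA per cell cannot be told apart.

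Reads are the number of uniquely mapped reads on a gene, and RPKM divides them by gene length and by the reads counted on genes in that library, so that RPKM can be compared between genes. Fold changes and p-values come from edgeR's quasi-likelihood test on the reads, scaled by TMM, with the p-value adjusted over all genes tested in a comparison, and a gene under 0.05 is called. In wildtype liver at 2 weeks the order of mean RPKM (± SD, n = 4) ran from Scarb1 (136 ± 13.3) through Scarb2 (34.3 ± 4.46), Marco (33.5 ± 6.21), Mrc1 (17.7 ± 1.72), Stab2 (15.04 ± 2.26), Colec12 (14.01 ± 1.32), Stab1 (9.29 ± 1.54), Msr1 (7.79 ± 2.23) and Cd163 (2.19 ± 0.887) to Scara5 (0.199 ± 0.148). Libraries of Scarb2 and Marco overlapped, as did those of Mrc1 and Stab2, of Stab2 and Colec12, and of Stab1 and Msr1, whereas every other step down that order separated all 4 libraries. At E17.5 the wildtype order began with Scarb1 (69.5 ± 3.68) and Marco (54.9 ± 10.9), which overlapped. It went on with Scarb2 (22.6 ± 1.81), Mrc1 (17.46 ± 1.70), Stab1 (17.2 ± 3.17), Stab2 (12.6 ± 1.81), Msr1 (8.40 ± 1.10), Colec12 (7.56 ± 0.885), Cd163 (1.24 ± 0.0633) and Scara5 (0.344 ± 0.127), with overlap between Mrc1 and Stab1, Stab1 and Stab2, and Msr1 and Colec12. Scara5 was thus the lowest of the 10 in wildtype liver at both ages and lay below all libraries of the next gene. In Stab1-/- liver it overlapped with Stab1 (1.09 ± 0.310) and with Cd163 at 2 weeks, and with Cd163 (1.08 ± 0.0936) at E17.5.

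**Figure D1:**
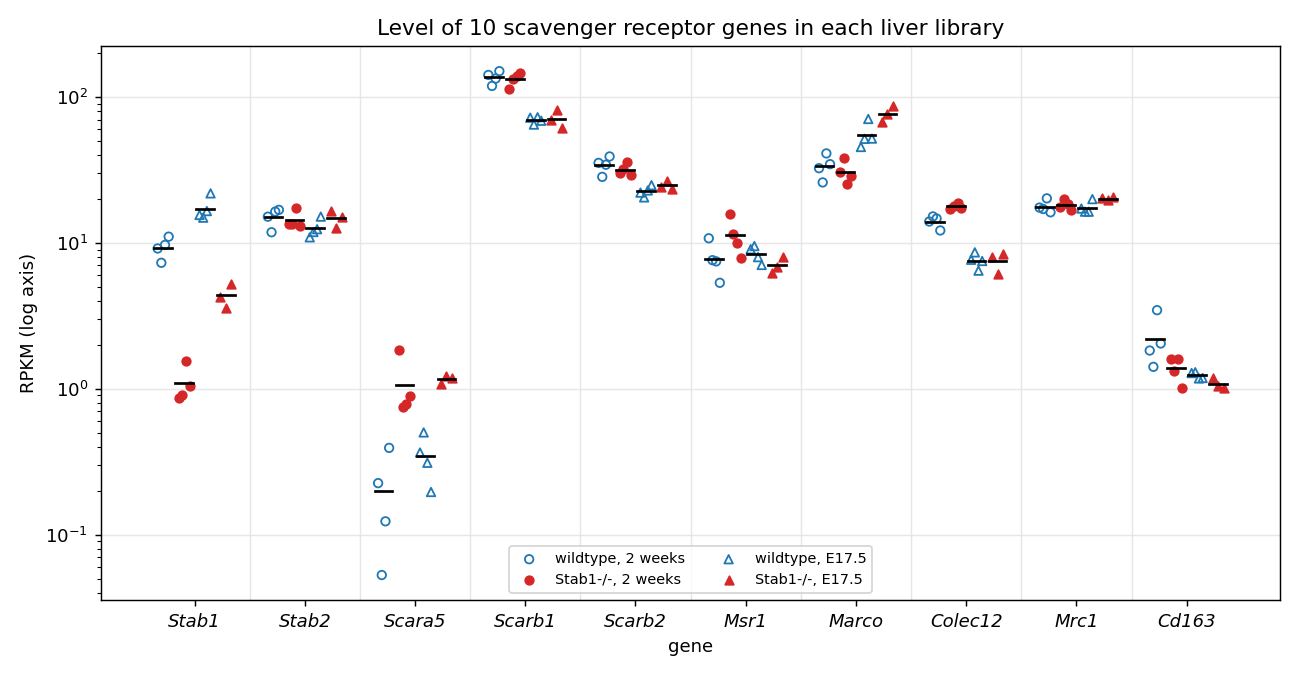
RPKM of the 10 genes on a log axis, 1 symbol per library, with circles for 2 weeks, triangles for E17.5, open blue symbols for wildtype, filled red symbols for Stab1-/- and a black line at the mean of each group. Stab1 lies lower and Scara5 higher in every Stab1-/- library than in every wildtype library of the same age.

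At 2 weeks, 1 of the 10 genes rose in Stab1-/- liver, Scara5, and 1 fell, Stab1. Among the 12716 genes tested, 0.936% were called higher in Stab1-/- liver and 1.74% lower. These were 119 and 221 genes, and 137 and 118 when libraries were scaled by their totals. At E17.5 the same pair was called, Scara5 higher and Stab1 lower, where 0.194% of 13388 genes tested were called higher and 0.172% lower (26 and 23 genes, and 22 and 32 with library totals). The RPKM of the genotypes did not overlap for 3 of the 10 genes at 2 weeks (Stab1, Scara5 and Colec12), against 14.9% of all genes tested, and for 2 at E17.5 (Stab1 and Scara5), against 12.2%. Stab1 is the deleted gene itself. The median log2 fold change of the 9 genes other than Stab1 was -0.12 at 2 weeks and 0.20 at E17.5, and that of all genes was -0.01 and 0.00.

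Stab1, the deleted gene, was counted in every Stab1-/- library. At 2 weeks 68, 77, 119 and 82 reads fell on it in the Stab1-/- libraries, and 766, 579, 822 and 941 in wildtype libraries. Stab1-/- samples at E17.5 had 361, 301 and 443 reads and wildtype samples 1337, 1244, 1448 and 1868. No library of one genotype reached the range of the other at either age. Mean RPKM was 1.09 ± 0.310 (SD, n = 4) against 9.29 ± 1.54 (n = 4) at 2 weeks, which left 11.7% of the wildtype level, and 4.37 ± 0.817 (n = 3) against 17.2 ± 3.17 (n = 4) at E17.5, which left 25.4%. On the log2 scale Stab1 fell by 3.19 (SE 0.20, adjusted p = 5.15e-06) at 2 weeks and fell by 1.91 (SE 0.15, adjusted p = 0.00101) at E17.5.

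Coverage, the deposited percent of the Stab1 gene model that reads span, was 26.2, 30.3, 41.1 and 35.7% in Stab1-/- libraries at 2 weeks and 91.1, 81.2, 91.0 and 93.6% in wildtype libraries. The means differed by -55.9 percentage points (33.3 ± 6.48% against 89.2 ± 5.49%, SD, n = 4 each, two-sided exact permutation test, p = 0.0286, the smallest that 4 against 4 libraries allow). At E17.5 coverage was 82.5, 79.3 and 86.0% in Stab1-/- and between 98.1 and 98.5% in wildtype libraries, a difference of -15.7 points (exact permutation p = 0.0571, the smallest that 3 against 4 can give). Coverage follows the number of reads, and it was lower where reads were fewer. The other genes show what coverage such read numbers give. In 2-week-old Stab1-/- liver Stab1 had 8.51 to 14.9 reads per kilobase and a median coverage of 33.0%, and at the same read density the median coverage was 39.5% for Cd163 (10 libraries, from 30.3 to 46.5%) and 44.5% for Scara5 (4 libraries, from 34.0 to 49.0%). The table gives no values per exon, so where in Stab1 the remaining reads lie, and whether they come from outside the deleted part, was not tested.

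**Figure D2:**
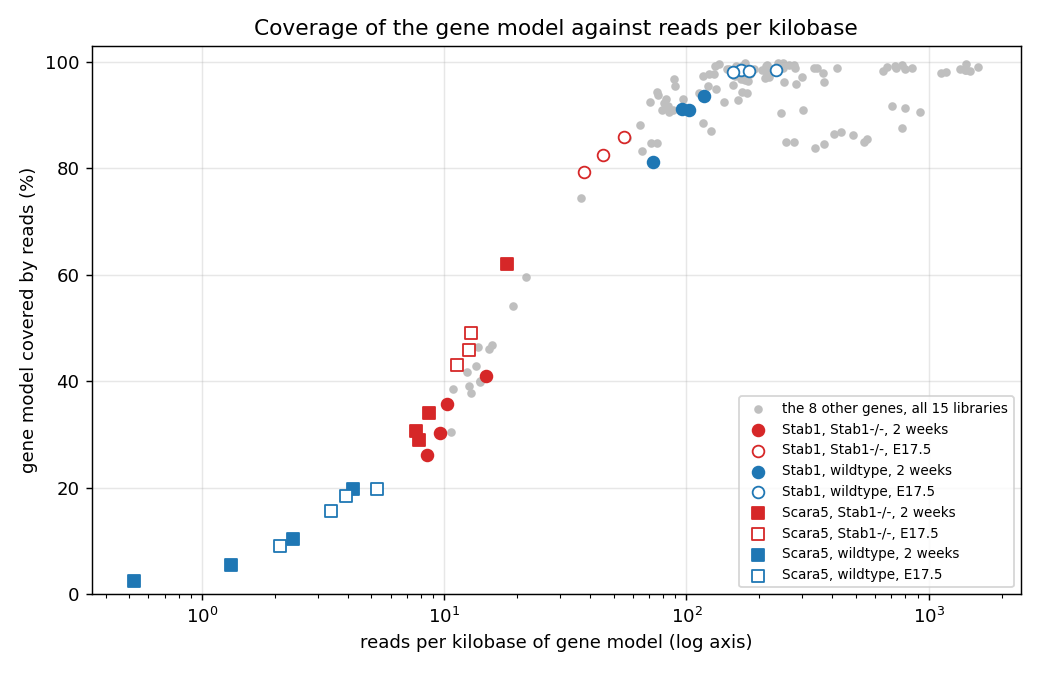
Coverage of the gene model in percent against reads per kilobase on a log axis, 1 symbol per gene and library, with circles for Stab1, squares for Scara5, red for Stab1-/-, blue for wildtype, filled symbols for 2 weeks, open symbols for E17.5 and grey points for the other 8 genes. Coverage of all 10 genes climbs with read density, and the 4 Stab1 points of 2-week-old Stab1-/- liver lie between 26.2 and 41.1%.

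Stab1 lies on the minus strand of chromosome 14 (31139013 to 31168641 in GRCm38), and 112 of its 10288 exon bases (1.09%) in the GENCODE annotation also belong to Nt5dc2 on the opposite strand. Nt5dc2 stood at 8.55 ± 0.663 RPKM (n = 4) in Stab1-/- and 10.8 ± 1.58 RPKM (n = 4) in wildtype liver at 2 weeks, and at 92.4 ± 7.55 (n = 3) and 97.2 ± 5.64 RPKM (n = 4) at E17.5. Reads in the shared bases cannot be assigned to 1 of the pair unless counting used strand, which the sources used here do not give. Their part in the remaining Stab1 reads, and in the difference between the ages, was not tested.

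Stab2 encodes the other stabilin, a sinusoidal receptor that clears hyaluronan and other glycosaminoglycans and shares ligands with stabilin-1. Its RPKM at 2 weeks was 13.4, 13.5, 17.3 and 13.0 in Stab1-/- and 15.1, 11.8, 16.4 and 16.8 in wildtype libraries. At E17.5 it was 16.6, 12.6 and 15.2 in Stab1-/- and 10.9, 11.9, 12.4 and 15.1 in wildtype libraries. The genotypes overlapped at both ages. Stab2 was not called at 2 weeks (log2 fold change -0.17, 95% interval -0.47 to 0.13, adjusted p = 0.488) or at E17.5 (0.29, 0.04 to 0.54, adjusted p = 0.331). The intervals hold a Stab2 level between 0.721 and 1.10 times the wildtype level at 2 weeks and between 1.03 and 1.46 times at E17.5. While mean Stab1 fell by 8.20 RPKM at 2 weeks and fell by 12.8 RPKM at E17.5, the Stab2 means differed by -0.728 and 2.19 RPKM.

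Scara5, a class A receptor known to bind and take up ferritin, was the receptor that rose at both ages. In Stab1-/- liver at 2 weeks it had 69, 30, 29 and 33 reads, and in wildtype liver 9, 2, 5 and 16. At E17.5 it had 43, 49 and 48 reads in Stab1-/- and 15, 20, 13 and 8 in wildtype samples. Every Stab1-/- library exceeded every wildtype library of its age, and Stab1-/- replicate 1 at 2 weeks stood above the rest. Mean RPKM was 1.06 ± 0.518 (SD, n = 4) against 0.199 ± 0.148 (n = 4) at 2 weeks, a ratio of 5.35, and 1.16 ± 0.0813 (n = 3) against 0.344 ± 0.127 (n = 4) at E17.5, a ratio of 3.38. The log2 fold change was 2.28 (SE 0.45, 95% interval 1.30 to 3.27, adjusted p = 0.0234) at 2 weeks and 1.81 (SE 0.28, 1.18 to 2.45, adjusted p = 0.0293) at E17.5. By p-value Scara5 ranked 151 of 12716 genes at 2 weeks and 38 of 13388 at E17.5. Scara5 is in neither of the paper's lists of genes upregulated in Stab1-/- liver at these ages.

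The call of Scara5 rested on few reads and on single libraries. At 2 weeks it was lost without Stab1-/- replicate 1 (log2 fold change 1.92, adjusted p = 0.0684), without Stab1-/- replicate 4 (2.34, 0.0515) and without wildtype replicate 3 (2.12, 0.0707). At E17.5 it was lost without Stab1-/- replicate 2 (1.75, 0.0872) or 3 (1.80, 0.109), without wildtype replicate 1 (1.85, 0.0924) or 3 (1.76, 0.0823), and with all 15 libraries in one fit (1.80, 0.0645). The log2 fold change stayed at or above 1.61 in all 15 of these leave-one-out fits. In absolute terms the Scara5 means differed by 0.866 RPKM at 2 weeks and 0.820 RPKM at E17.5, where Stab1 fell by 8.20 RPKM and fell by 12.8 RPKM.

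Scara5 and Stab1 lie on the same chromosome, 34.5 Mb apart, with Scara5 on the plus strand of chromosome 14 (65666403 to 65764826). Genes within 1 Mb of Scara5 were looked at after its values were seen. The 19 tested there at 2 weeks had log2 fold changes from -0.64 to 1.64 and the 18 at E17.5 from -0.63 to 1.79, and Nuggc held the highest value at both ages and was called at E17.5. Nuggc, a nuclear GTPase gene known from germinal centre B cells, ends 17.9 kb before Scara5 on the same strand. It had 32, 30, 35 and 24 reads in Stab1-/- and 20, 3, 2 and 13 in wildtype libraries at 2 weeks, and 24, 30 and 35 against 10, 9, 8 and 9 at E17.5. Its log2 fold change was 1.64 (SE 0.45, adjusted p = 0.0721) at 2 weeks and 1.79 (SE 0.26, adjusted p = 0.0161) at E17.5. The part that the shared stretch of chromosome, or the mixed strain background, has in the Scara5 difference was not tested.

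The class A receptors Msr1, Marco and Colec12 take up modified lipoproteins and microbes, the first 2 mainly in macrophages and Colec12 in endothelial and stromal cells. Msr1 had an RPKM of 15.8, 11.5, 10.004 and 7.86 in Stab1-/- and of 10.8, 7.61, 7.47 and 5.33 in wildtype libraries at 2 weeks. At E17.5 it had 6.21, 6.80 and 8.001 in Stab1-/- and 9.05, 9.51, 7.99 and 7.06 in wildtype samples. Genotypes overlapped at both ages, with the Stab1-/- mean above that of wildtype at 2 weeks and below it at E17.5. Neither difference was called (log2 fold change 0.44, 95% interval 0.00 to 0.89, adjusted p = 0.211 at 2 weeks, and -0.20, -0.50 to 0.10, adjusted p = 0.546 at E17.5). Msr1 has a GC content of 38.4%, the lowest of the 10 genes, and with offsets for GC content its 2-week value was 0.10. With the replicate number of the labels as a block, Msr1 was called at 2 weeks (0.44, adjusted p = 0.0232 by edgeR's quasi-likelihood test). With that block and the GC-content offsets together it was not called (0.10, adjusted p = 0.608 by the same test).

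Marco, the macrophage receptor with collagenous structure, was at 30.8, 38.4, 25.5 and 28.7 RPKM in Stab1-/- and 32.5, 26.0, 41.0 and 34.6 RPKM in wildtype libraries at 2 weeks. At E17.5 it was at 67.3, 76.4 and 86.9 RPKM in Stab1-/- and 45.4, 51.6, 70.6 and 51.8 RPKM in wildtype samples. A single wildtype sample at E17.5, replicate 3, reached into the range of the Stab1-/- samples. The log2 fold change was -0.22 (95% interval -0.57 to 0.14, adjusted p = 0.446) at 2 weeks and 0.55 (0.21 to 0.88, unadjusted p = 0.00455, adjusted p = 0.186 by edgeR's quasi-likelihood test) at E17.5, where DESeq2 called it (adjusted p = 0.0374). In RPKM the difference of 21.99 at E17.5 was larger in size than that of Stab1, which fell by 12.8.

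Colec12 was at 17.1, 18.0, 18.6 and 17.4 RPKM in Stab1-/- and 14.005, 15.2, 14.7 and 12.2 RPKM in wildtype libraries at 2 weeks. At E17.5 it was at 7.98, 6.13 and 8.38 RPKM in Stab1-/- and 7.66, 8.61, 6.45 and 7.51 RPKM in wildtype samples. The 2-week libraries did not overlap between genotypes and those at E17.5 did. The 2-week difference was small and not called after adjustment (log2 fold change 0.26, 95% interval 0.05 to 0.47, adjusted p = 0.144), and at E17.5 the value was 0.05 (-0.23 to 0.32, adjusted p = 0.896).

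Scarb1 encodes SR-BI, the receptor through which hepatocytes take up cholesterol from high-density lipoprotein, and Scarb2 encodes LIMP-2, a lysosomal membrane protein that carries glucocerebrosidase. Scarb1 was at 114, 133, 140 and 147 RPKM in Stab1-/- and 141, 119, 134 and 150 RPKM in wildtype libraries at 2 weeks, and at 69.2, 81.7 and 61.1 against 72.1, 64.6, 72.6 and 68.7 RPKM at E17.5. Scarb2 was at 30.3, 31.9, 35.9 and 29.2 against 35.3, 28.3, 34.3 and 39.1 RPKM at 2 weeks, and at 24.0, 26.7 and 23.6 against 22.1, 20.5, 22.9 and 24.9 RPKM at E17.5. Genotypes overlapped in all 4 comparisons. The log2 fold change of Scarb1 was -0.12 (95% interval -0.39 to 0.16) at 2 weeks and 0.09 (-0.17 to 0.35) at E17.5, and that of Scarb2 was -0.20 (-0.47 to 0.06) and 0.20 (-0.01 to 0.41). For Scarb1 the intervals hold 0.761 to 1.12 times the wildtype level at 2 weeks and 0.888 to 1.27 times at E17.5.

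Mrc1, the mannose receptor of sinusoidal endothelium and macrophages, was at 17.505, 19.9, 18.5 and 16.8 RPKM in Stab1-/- and 17.4, 17.1, 20.2 and 16.2 RPKM in wildtype libraries at 2 weeks. At E17.5 it was at 20.2, 19.6 and 20.6 RPKM in Stab1-/- and 17.2, 16.4, 16.4 and 19.95 RPKM in wildtype samples. A single wildtype sample at E17.5, replicate 4, lay within the Stab1-/- range. Mrc1 was not called at 2 weeks (log2 fold change -0.06, 95% interval -0.28 to 0.17, adjusted p = 0.774) or at E17.5 (0.27, 0.09 to 0.45, adjusted p = 0.234).

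Cd163 had 71, 63, 69 and 44 reads in Stab1-/- and 86, 63, 165 and 98 in wildtype libraries at 2 weeks. At E17.5 it had 56, 49 and 48 reads in Stab1-/- and 62, 61, 58 and 57 in wildtype samples. The 2-week wildtype libraries spread more than the others, with replicate 3 highest. The mean was 1.38 ± 0.281 RPKM (SD, n = 4) against 2.19 ± 0.887 (n = 4) at 2 weeks and 1.08 ± 0.0936 (n = 3) against 1.24 ± 0.0633 (n = 4) at E17.5. Cd163 was not called (log2 fold change -0.77, 95% interval -1.34 to -0.20, adjusted p = 0.119 at 2 weeks, and -0.14, -0.48 to 0.21, adjusted p = 0.728 at E17.5). Without wildtype replicate 2 the 2-week difference was called (-0.94, adjusted p = 0.0499).

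**Figure D3:**
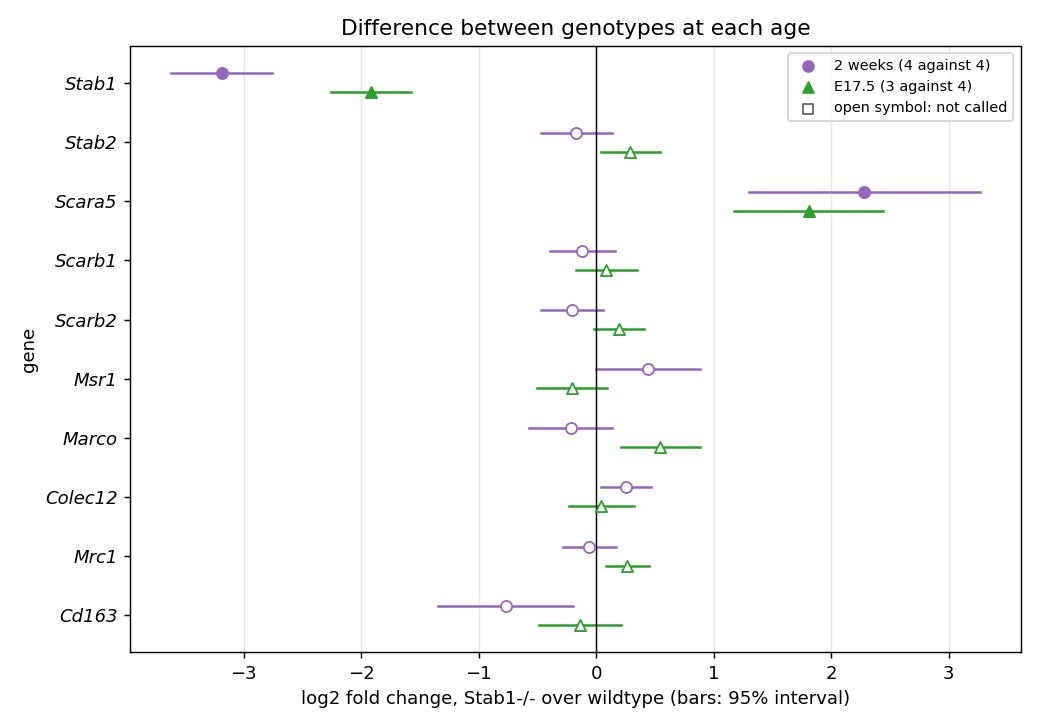
Log2 fold change of each gene in Stab1-/- over wildtype liver with its 95% interval, circles for 2 weeks and triangles for E17.5, filled where the gene was called. Filled symbols appear for Stab1 on the left and Scara5 on the right, and the other 8 genes have open symbols between -0.77 and 0.55.

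Summed over the 9 genes other than Stab1, RPKM came to 260 ± 12.4 (SD, n = 4) in Stab1-/- and 261 ± 23.2 (n = 4) in wildtype liver at 2 weeks. At E17.5 the sum was 224 ± 9.40 (n = 3) and 195 ± 12.0 (n = 4). Scarb1 takes the largest share of these sums, and without it the remaining 8 genes came to 127 ± 8.60 and 125 ± 12.6 RPKM at 2 weeks and to 153 ± 10.4 and 125 ± 10.4 RPKM at E17.5. The lowest E17.5 sum in Stab1-/- samples was 145 RPKM and the highest in wildtype samples 138 RPKM. Marco accounts for 21.99 RPKM of the difference between these means.

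A wider list of 28 scavenging and endocytic receptors, among them Cd36, the low-density lipoprotein receptor family, C-type lectins and the asialoglycoprotein receptors, was examined in the same fits. None of the 22 tested at 2 weeks and none of the 26 tested at E17.5 was called by edgeR's quasi-likelihood test. Unadjusted p-values under 0.05 were found for 3 and 5 of them, limma on log2(RPKM + 0.1) called 0 at both ages, and DESeq2 called 1 at each, Clec7a at 2 weeks and Cubn at E17.5. Over all genes, DESeq2 called 420 higher and 441 lower of 13026 at 2 weeks, and 130 and 105 of 14635 at E17.5. The same limma fit called 120 and 99 of 12716, and 19 and 46 of 13388. By edgeR's quasi-likelihood test, a p of 0.0491 ranked 2949 of 12716 genes at 2 weeks. At E17.5 a p of 0.0268 ranked 1080 and a p of 0.0647 ranked 2086 of 13388. The paper lists Cubn among the genes upregulated in Stab1-/- liver at E17.5, beside genes it describes as intestinal, such as Alpi and Fabp2. The part of such transcripts in the E17.5 values was not tested. The wider list's median log2 fold change was -0.08 at 2 weeks and 0.11 at E17.5. At 2 weeks its most abundant members in both genotypes were the hepatocyte genes Asgr1 and Asgr2, whose products clear glycoproteins that have lost sialic acid. Asgr1 was at 439 ± 19.4 against 436 ± 27.1 RPKM (SD, n = 4 each) at 2 weeks, and Asgr2 at 117 ± 16.4 against 125 ± 7.16 RPKM. Megf10 had at most 3 reads in every library.

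The genotype effect was then compared between ages in a fit to all 15 libraries, in which 1.81% of 13885 genes were called. Of the 10 genes 1 was called, Stab1. Its log2 fold change at E17.5 was 1.24 above that at 2 weeks (SE 0.26, 95% interval 0.68 to 1.79, adjusted p = 0.0310 by edgeR's quasi-likelihood test). Reads counted on the deleted gene were thus relatively less reduced in the fetal samples, and the part of the bases shared with Nt5dc2 was not tested. Leaving out a single library gave adjusted p-values between 0.0188 and 0.0772, and the call was lost in 7 of 15 such fits. These were the fits without 2-week Stab1-/- replicate 1 (1.18, adjusted p = 0.0568) or 2 (1.16, 0.0581), 2-week wildtype replicate 3 (1.21, 0.0563) or 4 (1.13, 0.0501), E17.5 Stab1-/- replicate 1 (1.29, 0.0679) and E17.5 wildtype replicate 1 (1.21, 0.0709) or 2 (1.17, 0.0772). For Scara5 the effects at the 2 ages differed by -0.51 (95% interval -1.79 to 0.77, adjusted p = 0.648). Marco (0.73, 0.21 to 1.25, adjusted p = 0.101) and Msr1 (-0.68, -1.28 to -0.08, adjusted p = 0.169) had the next largest differences in size after Stab1. All genes together had 140 positive and 111 negative calls, and 83 and 209 with library totals.

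Between E17.5 and 2 weeks the fetal liver loses most of its blood-forming cells. In wildtype liver 6 of the 10 receptors rose over this interval, Stab2, Scarb1, Scarb2, Colec12, Mrc1 and Cd163, and 1 fell, Stab1. In Stab1-/- liver 5 rose, Scarb1, Scarb2, Msr1, Colec12 and Cd163, and 2 fell, Stab1 and Marco. The share called was large throughout, 34.9% of 13369 genes higher at 2 weeks and 37.0% lower in wildtype liver, and 35.7% and 36.8% of 13433 genes in Stab1-/- liver. The median log2 fold change of the 10 genes was 0.51 in wildtype and 0.38 in Stab1-/- liver, and that of all genes -0.01 in each. The scaling matters for this comparison. With libraries scaled by their totals, as in RPKM, the median of all genes moved to -0.38 in wildtype liver (3104 genes higher and 6834 lower, against 4667 and 4948) and to -0.24 in Stab1-/- liver (3758 and 5944, against 4791 and 4945), so TMM-scaled values below are read against a median near 0.

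In wildtype liver Scarb1 rose by a log2 fold change of 1.33 (SE 0.11, adjusted p = 3.45e-07), Colec12 by 1.25 (SE 0.11, adjusted p = 5.04e-07), Cd163 by 1.19 (SE 0.25, adjusted p = 0.000997) and Scarb2 by 0.97 (SE 0.12, adjusted p = 1.38e-05). These 4 were called higher at 2 weeks under both scalings. The sinusoidal receptors Stab2 (0.63, SE 0.14, adjusted p = 0.00144) and Mrc1 (0.39, SE 0.11, adjusted p = 0.00574) were called with TMM, but with library totals they were not (Stab2 0.26, adjusted p = 0.102, and Mrc1 0.02, adjusted p = 0.870). Stab1 fell, by 0.52 with TMM (SE 0.15, adjusted p = 0.00935) and by 0.89 with library totals. Wildtype livers thus held the 2 stabilin genes at 17.2 and 12.6 RPKM at E17.5 and at 9.29 and 15.04 RPKM at 2 weeks, Stab1 and Stab2 respectively. Their order in these means turned between the ages, while at E17.5 their libraries overlapped.

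In Stab1-/- liver Colec12 rose by a log2 fold change of 1.47 (SE 0.11), Scarb1 by 1.14 (SE 0.15), Msr1 by 0.90 (SE 0.19) and Scarb2 by 0.58 (SE 0.11), with adjusted p-values of 4.55e-07, 4.18e-05, 0.00136 and 0.000525. Marco fell by 1.10 (SE 0.15, adjusted p = 5.27e-05) and the remaining Stab1 reads by 1.78 (SE 0.19, adjusted p = 9.27e-06). Cd163 rose by 0.57 (SE 0.19, adjusted p = 0.0175), a call that was lost without 2-week replicate 1 (0.49, adjusted p = 0.0548), without E17.5 replicate 3 (0.53, adjusted p = 0.0569) and with library totals (0.35, adjusted p = 0.147). Scara5 was not called between ages in wildtype (-0.40, 95% interval -1.43 to 0.63) or Stab1-/- liver (0.08, -0.59 to 0.75, and -0.13 with library totals). Stab2 in Stab1-/- liver (0.18, -0.08 to 0.43), Mrc1 in Stab1-/- liver (0.07, -0.13 to 0.27), Msr1 in wildtype liver (0.25, -0.13 to 0.62) and Marco in wildtype liver (-0.34, -0.71 to 0.02) were not called, and of these the first 3 values turn negative with library totals. Marco in wildtype liver was called with library totals (-0.71, adjusted p = 0.00150) and without 2-week wildtype replicate 3 (-0.45, adjusted p = 0.0316), and Msr1 without 2-week wildtype replicate 4 (0.39, adjusted p = 0.0325). A gene called in 1 genotype and not in the other is not thereby shown to differ, and the test of that difference, the comparison of genotype effects between ages above, called Stab1 alone.

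**Figure D4:**
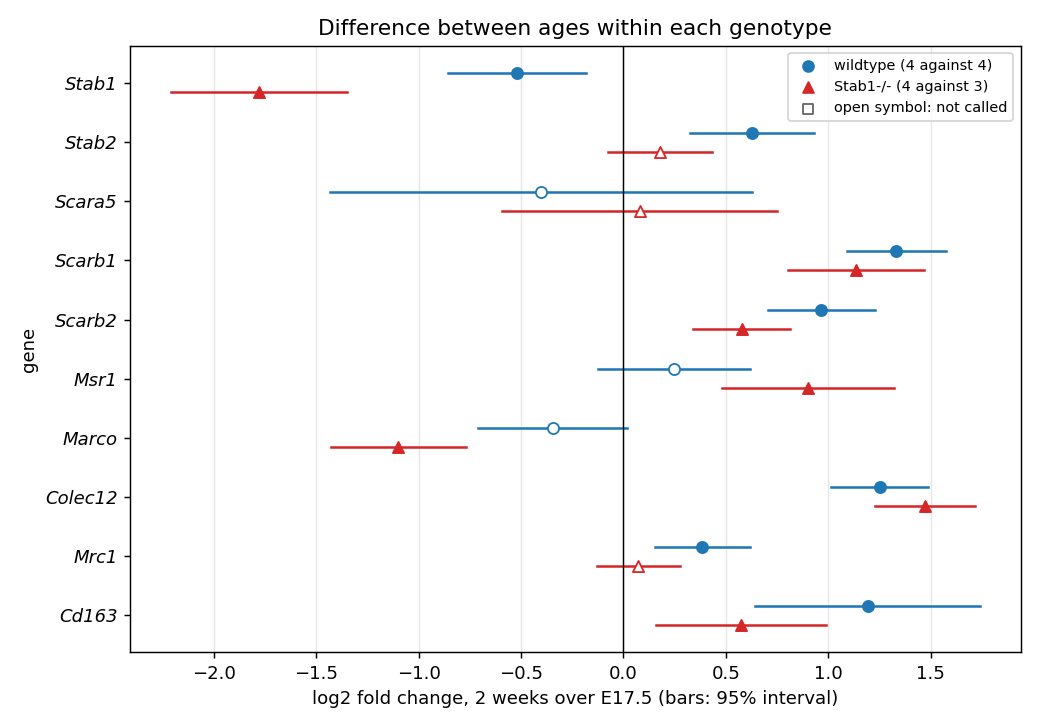
Log2 fold change of each gene at 2 weeks over E17.5 with its 95% interval, TMM-scaled, circles for wildtype and triangles for Stab1-/- liver, filled where the gene was called. Scarb1, Scarb2, Colec12 and Cd163 lie to the right in both genotypes and Stab1 to the left in both. With library totals instead of TMM the values shift down, and 4 of the open symbols on the right (Stab2, Scara5 and Mrc1 in Stab1-/-, Msr1 in wildtype liver) turn negative.

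Marker genes of the cells that carry these receptors were examined beside them. The lists share a few genes with the wider receptor list, such as Lyve1, Fcgr2b and Clec4f. The counts of each list are read beside those over all genes given for the wider receptor list. Hepatocyte markers gave the tissue its identity, with Alb at 44441 ± 4765 and 57001 ± 7573 RPKM (SD, n = 4 each) in 2-week Stab1-/- and wildtype liver. At 2 weeks 2 of 20 endothelial markers fell in Stab1-/- liver, Dnase1l3 (13.7 ± 0.761 against 20.005 ± 3.31 RPKM, log2 fold change -0.64, adjusted p = 0.0328) and Kdr (10.9 ± 0.711 against 13.8 ± 1.23 RPKM, -0.43, adjusted p = 0.0476), a secreted nuclease and the main receptor for vascular endothelial growth factor. Of the 20, 11 had an unadjusted p under 0.05, DESeq2 called 6 and limma 0. Over all genes, a p of 0.0491 in edgeR's quasi-likelihood test ranked 2949 of 12716, and DESeq2 called 420 higher and 441 lower of 13026. The Kdr call was lost with median-of-ratios scaling (adjusted p = 0.0515), library totals (0.0904), GC-content offsets (0.0530), limma (0.0985) and in 7 of 8 leave-one-out fits, all but that without wildtype replicate 2 (0.0677 to 0.143). The Dnase1l3 call was lost with limma (adjusted p = 0.0535) and in 6 of 8 leave-one-out fits, all but those without wildtype replicates 1 and 2 (0.0526 to 0.108). The endothelial list summed to between 307 and 322 RPKM in Stab1-/- and between 309 and 354 RPKM in wildtype libraries, with a median log2 fold change of -0.31. At E17.5, 0 of 20 were called (2 at an unadjusted p under 0.05, 0 by DESeq2 and 0 by limma), and the sums were 226 to 229 and 213 to 234 RPKM. The part of endothelial RNA content in the 2-week values of Stab1, Stab2 and Mrc1 was not tested.

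Among 19 markers of Kupffer cells and macrophages, Cx3cr1 rose at 2 weeks (0.833 ± 0.160 against 0.217 ± 0.0742 RPKM, log2 fold change 1.84, adjusted p = 0.00787). Cx3cr1 encodes the fractalkine receptor of monocytes. In the list 6 genes had an unadjusted p under 0.05 at 2 weeks, DESeq2 called 3 and limma 1. The list summed to between 624.5 and 804 RPKM in Stab1-/- and between 467 and 689 RPKM in wildtype libraries at 2 weeks, and to 778 to 882 and 840 to 1098 RPKM at E17.5. At E17.5 0 of 19 were called by edgeR, 6 had an unadjusted p under 0.05, DESeq2 called 2 and limma 0. These sums overlapped between genotypes at both ages, as did Msr1, Marco and Cd163. The part of macrophage content in the values of those 3 genes, of Stab1 and of Mrc1 was not tested.

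Of 12 stellate cell and fibroblast markers, 4 fell at 2 weeks, Col1a2 (14.4 ± 1.84 against 26.5 ± 3.93 RPKM, log2 fold change -0.97, adjusted p = 0.00618), Col3a1 (-0.75, adjusted p = 0.0229), Col1a1 (-1.03, adjusted p = 0.0255) and Reln (-0.62, adjusted p = 0.0340). Of the 12, 7 had an unadjusted p under 0.05, DESeq2 called 5 and limma 3. Reln lost its call with library totals (adjusted p = 0.0590), limma (0.0655) and in 6 of 8 leave-one-out fits, all but those without Stab1-/- replicate 3 and wildtype replicate 2 (0.0536 to 0.108). Col3a1 lost it with all 15 libraries in one fit (adjusted p = 0.0552) and without Stab1-/- replicates 1, 2 or 3 (0.0638 to 0.0771), and Col1a1 without Stab1-/- replicates 1 or 2 (0.0791 and 0.0813). Col1a2, Col3a1 and Col1a1 are fibrillar collagen genes and Reln encodes the matrix protein reelin. Scara5 and Colec12 are also expressed by stromal cells. Their RPKM was higher in the same Stab1-/- libraries, but Colec12 was not called (adjusted p = 0.144 by edgeR's quasi-likelihood test). The stellate cell list summed to between 320 and 339 RPKM in Stab1-/- and between 336 and 401 RPKM in wildtype libraries. The part of stromal cell content in the values of Scara5 and Colec12 was not tested. At E17.5 0 of 12 were called (1 at an unadjusted p under 0.05, 0 by DESeq2 and 0 by limma). Of hepatocyte markers 0 of 10 were called at either age by edgeR or limma, with unadjusted p-values under 0.05 for 4 at 2 weeks and 3 at E17.5 and DESeq2 calls for 2 and 1. Of fetal blood cell markers 0 of 9 at 2 weeks and 0 of 12 at E17.5 were called by edgeR, DESeq2 or limma, with 1 and 2 at an unadjusted p under 0.05.

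The same lists were compared between the ages. Of all genes tested, 34.9% were called higher at 2 weeks and 37.0% lower in wildtype liver. In Stab1-/- liver these shares were 35.7% and 36.8%. All 12 fetal blood cell markers fell in both genotypes, with a median log2 fold change of -4.99 in wildtype and -4.71 in Stab1-/- liver, and their sum went from 1759 to 2096 RPKM down to 81.3 to 140 RPKM in wildtype libraries. With TMM, endothelial markers rose for 16 of 20 in wildtype and 11 of 20 in Stab1-/- liver, and hepatocyte markers for 9 and 8 of 10. On RPKM, limma called 14 and 12 endothelial and 9 and 8 hepatocyte markers, counted in either direction. Macrophage markers were divided, as all genes were, with 4 of 19 higher and 9 lower in wildtype and 6 and 8 in Stab1-/- liver. Stellate cell markers rose for 8 and 6 of 12. In the wider receptor list 11 of 24 rose and 6 fell in wildtype liver, among them Asgr1 (3.94, SE 0.26) and Fcgr2b (2.49, SE 0.11), and Olr1, the receptor for oxidized lipoprotein, fell by 6.01 (SE 0.37). In Stab1-/- liver 10 rose and 8 fell. How far the shift in cell types sets the age differences of the 10 receptors was not tested.

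Genes with a profile like that of a stabilin were listed by the root mean square difference of centred log2(RPKM + 0.1) values. Over the 8 wildtype libraries the 4 nearest to Stab1 were Dchs1 (0.0779), Rere (0.0786), Znfx1 (0.0830) and Coro1c (0.0848), where the median over all genes compared was 0.532. Each of them, like Stab1, had a lower mean RPKM at 2 weeks than at E17.5, for example Coro1c with 12.6 against 23.5. Over all 15 libraries the 5 nearest to Stab2 were Iqgap2 (0.101), Kdm6b (0.110), Vps13d (0.113), Lima1 (0.115) and Sh3d19 (0.120), with a median of 0.519. None of the endothelial markers was among these genes. The points share library totals and the split into 2 ages, and the likeness is a description.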

How the data were processed

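Whole liver RNA of 15 libraries (Stab1-/- and wildtype, 2 weeks and E17.5) was analysed from the 1 deposited table. It holds counts of uniquely mapped reads per gene, which the authors deposited without normalization, the percent of the gene model covered, as the authors computed it, and RPKM, which the authors derived from these counts, gene length and the reads on genes of each library (recomputed within 0.0001% for 100% of values). Aligner, genome build and use of strand are not given in the sources used here. Gene positions come from GENCODE vM21 (GRCm38) and serve to locate genes. Groups follow the sample labels.

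Genes were compared on the counts with edgeR 4.0.16 under R 4.3.3 (TMM, filterByExpr at min.count 10 and min.total.count 15, quasi-likelihood test, two-sided, Benjamini-Hochberg adjustment over all genes tested, called under 0.05), separately for each genotype and age comparison, and with an interaction term over all 15 libraries. Coverage was compared by exact permutation tests (SciPy 1.17.1). Alternatives were DESeq2 1.42.0, other scalings, no filter, the replicate number as a block, GC-content offsets with and without that block, limma 3.58.1 on log2(RPKM + 0.1) and log2(RPKM + 1), an RPKM minimum of 1, all 15 libraries in one fit, and each library left out in turn. The fits were tested on simulated data. Adgre1 was matched to its older symbol in the table by gene ID.

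The 10 genes and the marker lists were chosen with earlier results of these data known. Named are all 10 genes, up to 4 called genes of each list per comparison with the smallest p-values or else its 2 most abundant genes, and the 5 genes nearest in profile to Stab1 and to Stab2, except that 2 genes named by this rule are not reported here. Nt5dc2 and the genes near Scara5 were named for their position, after values were seen, and so were list genes called by DESeq2 alone. No sequences are shown. Each library has at least 9659 reads on genes in units of 1000, so that a gene near 1 RPKM such as Scara5 rests on few reads.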

Additional observations from a re-analysis of the deposited data

Results flagged for a closer look

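Reads counted on Stab1 itself were reduced less at E17.5 than at 2 weeks, and the part of the bases shared with Nt5dc2 was not tested. The log2 fold changes of -1.91 and -3.19 differed by 1.24 in the fit to all 15 libraries (adjusted p = 0.0310, edgeR's quasi-likelihood test), and the residual level was above 0 in every Stab1-/- library.

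For 2 of the 30 sets of 4 libraries examined (10 genes in each group of 4), 1 library stood apart from the others by Dixon's criterion, where chance gives about 1 in 20, or 1.5 of 30. Scara5 was at 1.84 RPKM (69 reads) in 2-week-old Stab1-/- replicate 1, and the nearest library of that group was at 0.890 RPKM. Without that library the 2-week log2 fold change was 1.92 and no longer called (adjusted p = 0.0684). Stab2 was at 17.3 RPKM in 2-week-old Stab1-/- replicate 3, next to 13.5 RPKM in the nearest library. Groups of 3 were not examined.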

How the results depend on the processing

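Stab1 was called lower in Stab1-/- liver under all 11 alternatives and all leave-one-out fits at each age. At 2 weeks 2 of the 10 genes were called, and 1 to 3 when single libraries were left out (Cd163 added without wildtype replicate 2). With a minimum of 1 RPKM 1 was called, since Scara5 was then not tested. At E17.5 2 were called, and 1 with a minimum of 1 RPKM (Scara5 not tested), 1 with all 15 libraries in one fit, and 1 to 2 when single libraries were left out. For the difference between ages 1 gene was called, 2 with DESeq2 (Marco added), 0 with limma on log2(RPKM + 0.1) or log2(RPKM + 1), and 0 to 1 without single libraries. The Stab1 coverage difference at 2 weeks was between -58.6 and -53.5 points without single libraries, with an exact p of 0.0571, the smallest that 3 against 4 allow. Divided by reads per kilobase the 2-week difference was 2.18 and that at E17.5 1.28, a turn of sign that the quotient itself gives, since coverage levels off as reads increase and the quotient is higher where reads are fewer. Counts between ages stayed within 1.5 times of 7. Over the 10 genes and all comparisons, 505 values under processing alternatives kept their call, 14 gained it and 17 lost it, and 431, 3 and 16 did so in leave-one-out fits. The sign turned for 30 values, none of them called. The cause was not tested.

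The labels do not say what the replicate numbers stand for. Deviations of same-numbered libraries from the group means correlated at 0.0223 to 0.202 at 2 weeks (over 0.1 in 3 of 4 pairs, mean 0.140 against -0.047 for other pairs) and at -0.181 to 0 at E17.5, and at neither age did every library correlate best with its own number. Blocking on that number gave 3 genes called at 2 weeks (Msr1 added, adjusted p = 0.0232), left 1 gene called at E17.5, also with GC-content offsets (Scara5 1.62, adjusted p = 0.130, and 1.59, adjusted p = 0.0812), and 2 for the difference between ages (Msr1 added). All genes called went from 340 to 1181 at 2 weeks and from 49 to 23 at E17.5. With GC-content offsets added to the block, edgeR's quasi-likelihood test did not call Msr1 at 2 weeks (0.10, adjusted p = 0.608). It did not call Msr1 for the difference between ages either (-0.19, adjusted p = 0.518).

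Levels below about 1 RPKM, as in most Scara5 libraries, rest on 2 to 33 reads a library, and the intervals given for the 8 genes without a call still allow changes of the size printed with them.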
